A study of Mus musculus with 4 samples.

Results

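Control-only regions of sperm and islets are stretches of the mouse autosomes in which methylated DNA was called as a peak in the control islet library and in the control sperm library, and in neither library of the T2D (type 2 diabetes) side. They were found by joining touching or overlapping peaks of the 4 deposited lists into union regions and keeping autosomal regions with a peak in both control lists and none in either T2D list. This left 6827 of 307174 union regions, or 2.26% of the 301535 autosomal ones. The regions were chosen by the presence and absence of peaks in these libraries, so that count, the tags and scores of their peaks and their distance to T2D peaks are descriptions, and no test was made of them.

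The samples were pancreatic islets of 3-week-old offspring of T2D fathers, islets of 3-week-old offspring of control fathers, sperm of 16-week-old T2D founder males and sperm of 16-week-old control founder males, all of the outbred ICR strain. T2D founders had received a diet with 33% of energy as fat, followed at 12 weeks of age by a low dose of streptozotocin (a toxin that damages insulin-producing beta cells), and were taken as diabetic at a blood glucose of 7 to 11 mM. Control founders had a control diet, all mothers had standard diet, and the offspring themselves received no treatment. Islets were collected from 6 offspring and sperm from 6 founders a group, but each group had 1 library and how animals were pooled is not stated, so no difference between conditions has a replicate check. Islets hold several endocrine cell types and the peak lists carry no expression, so the purity of islets or sperm could not be checked against marker genes.

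In mammals DNA methylation is carried mostly by cytosines that precede a guanine. MeDIP-seq (methylated DNA immunoprecipitation followed by sequencing) recovers fragments with an antibody against 5-methylcytosine, and favours stretches that hold many methylated sites close together. A father's methylation marks are largely removed from his genome after fertilisation and set again in the embryo, with imprinted loci as the best known exceptions, and the design asks whether differences in a diabetic father's sperm are met again in the islets of his offspring. The regions described here are those where a peak was missing on the T2D side of both generations. A missing peak means that the list holds no call there, not that the DNA was unmethylated. The deposited coordinates are of build mm9, of which no sequence or gene annotation was used here, so regions are given by position and by the peaks around them.

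Regions with a peak in exactly 1 islet list and 1 sperm list fell into 4 classes of nearly equal size. Beside the 6827 control-only regions there were 6768 regions called in both T2D lists only (2.24% of autosomal union regions). Regions of opposite condition numbered 6636 for T2D islets with control sperm and 6805 for control islets with T2D sperm. The control-only regions were thus 1.01 times as many as the T2D-only regions (exact 95% binomial interval 0.975 to 1.04), and 1.03 times (0.995 to 1.06) and 1.00 times (0.970 to 1.04) as many as the regions of opposite condition. Every interval includes 1, and all intervals given here cover counting error only. With all lists restricted to scores of at least 100, the 3 ratios were 1.24 (1.18 to 1.31), 1.10 (1.05 to 1.16) and 1.16 (1.10 to 1.22), whose intervals exclude 1. Only 226 of the 3414 control-only regions at that threshold (6.62%) overlapped one of the 6827, namely those with both scores at least 100. The others lay in regions of the full lists that also held a T2D peak, so these ratios do not describe the 6827 regions. The control lists also kept more peaks at that threshold (60629 in islets and 70203 in sperm) than the T2D lists (58961 and 67826). Taking islets without regard to sperm, 17.5% of autosomal union regions were control only and 17.4% were T2D only. In sperm, without regard to islets, the shares were 17.3% and 17.8%. The 85 regions of the same kind on X and the 2 on Y were not counted.

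Control-only regions rested on the weaker peaks of their lists. They held 6845 control islet peaks with a median of 31 tags (sequenced reads; quartiles 24 and 44), against 48 tags (34 and 69) for control islet peaks in regions called in all 4 lists. In control sperm their 6833 peaks had a median of 42 tags (30 and 64), against 66 tags (47 and 97) in regions called in all 4 lists. Peaks found in 1 list alone were weaker still, with medians of 27 tags in control islets and 33 tags in control sperm. A partner in the opposite condition of the other tissue went with nearly the same strength. Control islet peaks that met a T2D sperm peak had a median of 30 tags, and control sperm peaks that met a T2D islet peak had a median of 39 tags. For control islets the intervals of the medians touched (30 to 31 tags for control-only regions and 29 to 30 tags for the opposite class), while in control sperm they did not (41 to 42 and 39 to 40 tags). Enrichment over the caller's background went the other way in control sperm. Its medians were 6.15 (6.14 to 6.17) for control-only regions and 6.27 (6.20 to 6.34) for the opposite class. These intervals run over peaks of 1 library and cover no spread between animals. Tags of islets and sperm are not on a common scale, since the depth of the islet libraries is unknown.

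**Figure D1:**
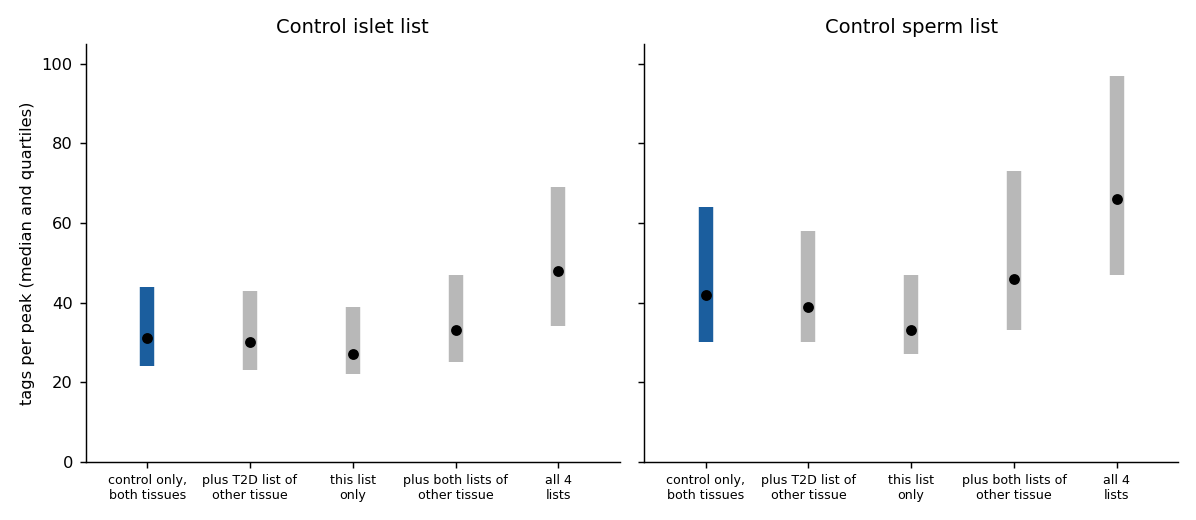
Tags per peak in the control islet list (left) and the control sperm list (right), by which other lists had a peak in the same region. Points are medians and bars run between the quartiles. Control-only regions (blue) sit at 31 and 42 tags, close to peaks that met the T2D list of the other tissue (30 and 39), and below peaks of regions called in all 4 lists (48 and 66).

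The caller's score, which is 10 times the negative log10 of its p-value and starts at 50, was likewise lower than in regions called in all 4 lists, with a median of 68.1 against 104 in control islets and 70.3 against 117 in control sperm. It did not set the control-only regions apart from the opposite class, whose medians were 67.7 in control islets and 70.4 in control sperm. Of the control-only regions, 48.9% (95% Wilson interval 47.7% to 50.04%) had a score under 60 in at least 1 of their tissues, and 653 had one in both. Scores of at least 100 in both tissues were found in 226 regions, or 3.31%. Among the weakest 10% of control islet peaks 6.97% (6.60% to 7.37%) lay in control-only regions, and among the strongest 10% this was 0.444% (0.353% to 0.558%), or 73 peaks. Control sperm went down in the same way, with 6.38% (6.03% to 6.75%) of the weakest and 0.433% (0.346% to 0.542%) of the strongest 10%. In the strongest 1% there were 2 of 1644 control islet peaks and 0 of 1755 control sperm peaks in control-only regions. Peaks paired with the opposite condition followed the same course, with 7.17% of the weakest and 0.298% of the strongest 10% in control islets and 6.19% and 0.336% in control sperm.

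**Figure D2:**
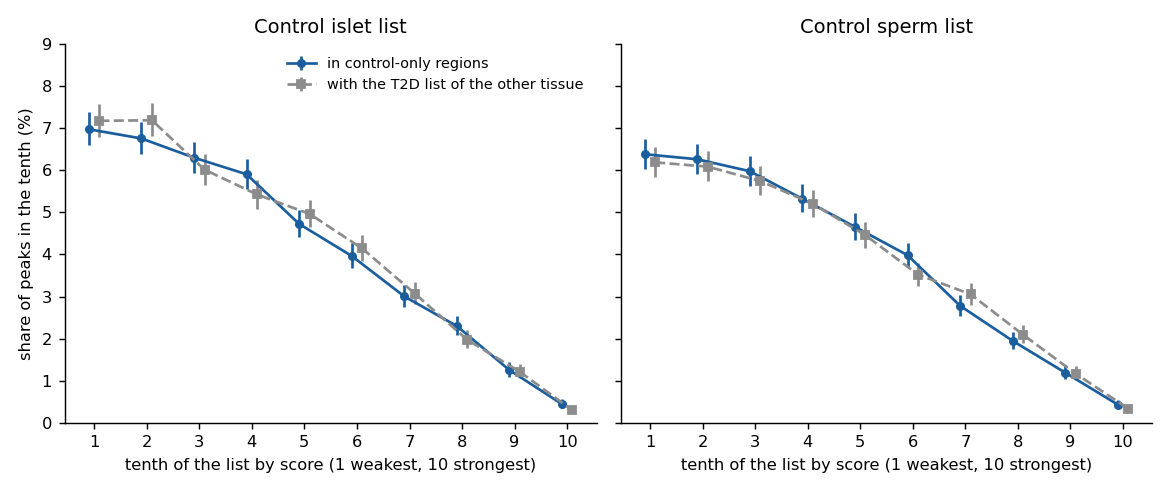
Share of peaks in each 10% step of the control islet list (left) and the control sperm list (right), ordered by score, that lay in control-only regions (blue circles) or in regions shared only with the T2D list of the other tissue (grey squares). Bars are 95% Wilson intervals. Both shares decline from the weakest 10%, at 6.97% and 6.38% for control-only regions, to the strongest, at 0.444% and 0.433%.

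The 2 control-only regions that ranked in the strongest 10% of both lists were picked after their values were seen. On chromosome 12 from 60733538 to 60734213 the islet peak had a score of 177 with 32 tags and an enrichment of 12.9 over the caller's background, and the sperm peak had a score of 222 with 51 tags and an enrichment of 12.6. The nearest T2D peak was 4546 bp away in islets and 8019 bp away in sperm. On chromosome 16 from 17647824 to 17648582 the islet peak had a score of 171 with 57 tags, and the sperm peak a score of 188 with 52 tags. There T2D peaks lay closer, at 1624 bp in islets and 2614 bp in sperm. The T2D-only class also held 2 such regions, and the opposite classes held 4 (T2D islets with control sperm) and 2 (control islets with T2D sperm).

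Tags are counted over the whole peak, and the regions with the most tags were broad and weakly enriched. The highest counts in both tissues at once lay on chromosome 4 from 155603692 to 155607292, a region of 3601 bp with 350 islet and 348 sperm tags. Its enrichments were 3.47 in islets and 3.09 in sperm, and its scores were 68.1 and 65.4. A region of 2724 bp on chromosome 15 from 58817333 to 58820056 had 245 islet and 367 sperm tags, with summits (the points of highest density) 42 bp apart. On chromosome 19 from 4289069 to 4292115 a region of 3047 bp had 237 islet and 354 sperm tags, and T2D peaks began 992 bp away in islets and 942 bp away in sperm. On chromosome 10 from 110200260 to 110203402 the tags were 235 in islets and 438 in sperm, the highest sperm count of any control-only region. The fifth, on chromosome 4 from 134453081 to 134455581, had 258 islet and 234 sperm tags with coinciding summits. Chromosome 2 followed with 225 islet and 295 sperm tags (165669955 to 165673029). The last of the 8 lay on chromosome 16 (92394564 to 92397753; 223 islet and 288 sperm tags) and on chromosome 5 (102311202 to 102314498; 221 islet and 367 sperm tags). All 8 were over 2000 bp wide, as were 526 control-only regions, or 7.70%, and none had an enrichment above 4.97 in either tissue.

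The contrast of breadth and enrichment held over the whole class, and was also met in the other classes. In the widest 25% of control-only regions, from 1343 bp up, peaks had a median of 55 islet and 84 sperm tags with enrichments of 5.89 and 5.24. In the narrowest 25%, up to 808 bp, they had 24 islet and 29 sperm tags with enrichments of 7.19 and 6.46. Median scores of the widest and narrowest regions were close, at 68.4 and 71.05 in islets and 69.25 and 74.2 in sperm. The widest 25% of T2D-only regions, from 1287 bp up, had 50 islet and 73.5 sperm tags, with enrichments of 5.78 and 5.29. Their narrowest 25% had enrichments of 7.33 and 6.73. These tags come from the T2D libraries and are not set against those of the control libraries. In islets the narrowest 25% of either opposite class had an enrichment of 7.33, against 5.83 and 5.86 in the widest.

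**Figure D3:**
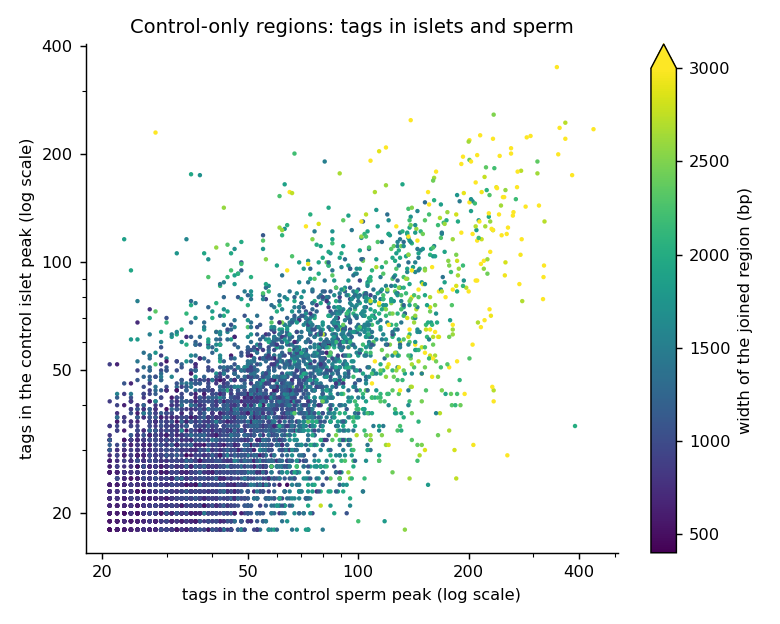
Tags in the control sperm peak against tags in the control islet peak for the 6827 control-only regions, both on log scales, coloured by the width of the joined region. Regions of over 2000 bp fill the upper right, with up to 350 islet and 438 sperm tags, and narrow ones the lower left.

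The width of the joined regions had a median of 1015 bp (interval 1004 to 1030; range 424 to 4325 bp), against 997 bp for T2D-only regions and 1006 and 1008 bp for the opposite classes. The widest lay on chromosome 3 from 54436371 to 54440695, where an islet peak of 3660 bp with 230 tags met a sperm peak of 893 bp with 28 tags. Their summits were 3144 bp apart. The next, of 4062 bp on chromosome 9 from 14506095 to 14510156, also had distant summits, 2706 bp apart, with 116 islet and 279 sperm tags. By contrast, the region of 3813 bp on chromosome 8 from 124002896 to 124006708 had summits 23 bp apart, although its islet peak spanned 1106 bp and its sperm peak 3813 bp. The fourth widest was the chromosome 4 region with the most tags. The fifth widest, on chromosome 16 from 33064344 to 33067941, had summits 6 bp apart, with 120 islet and 205 sperm tags.

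Most control-only regions marked the same spot in both tissues. The islet and sperm summits were a median of 35 bp apart, and in 80.0% of regions (79.0% to 80.9%) within 100 bp. The smaller peak lay wholly inside the larger in 53.3% of regions, and 98.8% shared at least 50% of the smaller peak. In 1 region the peaks only touched. The opposite classes did not stand apart in this, with summits within 100 bp in 79.4% (78.5% to 80.4%) of regions of T2D islets with control sperm and 78.8% (77.8% to 79.7%) of control islets with T2D sperm. In T2D-only regions it was 78.7%. Only 24 control-only regions held more than 1 peak of a list.

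T2D peaks were near most control-only regions. The nearest T2D peak of either tissue was a median of 2631 bp away (interval 2551 to 2704), with the islet T2D list at 3953 bp and the sperm T2D list at 3570 bp. A T2D peak lay within 1000 bp in 1191 regions, or 17.4% (16.6% to 18.4%), and within 10 kb in 92.1%. On both sides within 10 kb, T2D peaks flanked 4310 regions, or 63.1% (62.0% to 64.3%). The same distance was taken in the other classes to the lists in which those regions lacked a peak. Its median was 2834 bp (2747 to 2935) for T2D-only regions, 2702.5 bp (2645 to 2771) for T2D islets with control sperm and 2847 bp (2762 to 2931) for control islets with T2D sperm. Within 1000 bp the share was 15.1% (14.2% to 15.9%) for T2D-only regions, 16.8% (15.9% to 17.7%) for T2D islets with control sperm and 16.0% (15.2% to 16.9%) for control islets with T2D sperm. For both measures the intervals of control-only and T2D-only regions do not overlap, while those of control-only regions and T2D islets with control sperm do. Control islets with T2D sperm were apart from control-only regions in the median but not in the share. At equal list lengths, a comparison added after the data were seen, the shares were 16.0% (15.1% to 16.9%) for control-only and 14.1% (13.3% to 14.9%) for T2D-only regions, and 15.2% in either opposite class. Peaks of a class's own lists, outside regions of that class, were also closer in control-only than in T2D-only regions. Their median distance was 2989 bp (2927 to 3058), against 3145 bp (3069 to 3211) for T2D-only regions. It was 3122.5 bp (3046 to 3206) for T2D islets with control sperm and 3102 bp (3035 to 3177) for control islets with T2D sperm. Both of these intervals overlap that of control-only regions. Within 1000 bp the own-list shares were 11.5% (10.8% to 12.3%) for control-only and 9.66% (8.98% to 10.4%) for T2D-only regions, so the closeness was not particular to T2D peaks. In the opposite classes they were 10.4% (T2D islets with control sperm) and 10.8% (control islets with T2D sperm).

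Local peak density was set beside the distance to the lists without a peak in the region. A peak of those lists within 1000 bp is itself counted within 50 kb, so a share that rises with density is partly built in. Within 50 kb of a control-only region there were on average 8.37 T2D and 8.48 control islet peaks, and 9.14 T2D and 9.11 control sperm peaks, not counting the region's own. Around T2D-only regions these averages were lower for every list, at 8.04 and 8.14 in islets and 8.90 and 8.88 in sperm. In the most crowded surroundings, with 21 or more peaks of the 2 absent lists within 50 kb, an absent-list peak lay within 1000 bp of 23.9% (22.3% to 25.7%) of control-only and 19.4% (17.9% to 21.05%) of T2D-only regions. With 14 to 20 such peaks the shares were 15.8% (14.5% to 17.3%) and 16.2% (14.8% to 17.7%), and with 0 to 13 they were 10.8% (9.40% to 12.3%) and 8.76% (7.61% to 10.1%). In the crowded surroundings the opposite classes had 21.8% (20.2% to 23.5%) for T2D islets with control sperm and 22.4% (20.8% to 24.1%) for control islets with T2D sperm, both with intervals that overlap that of control-only regions.

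**Figure D4:**
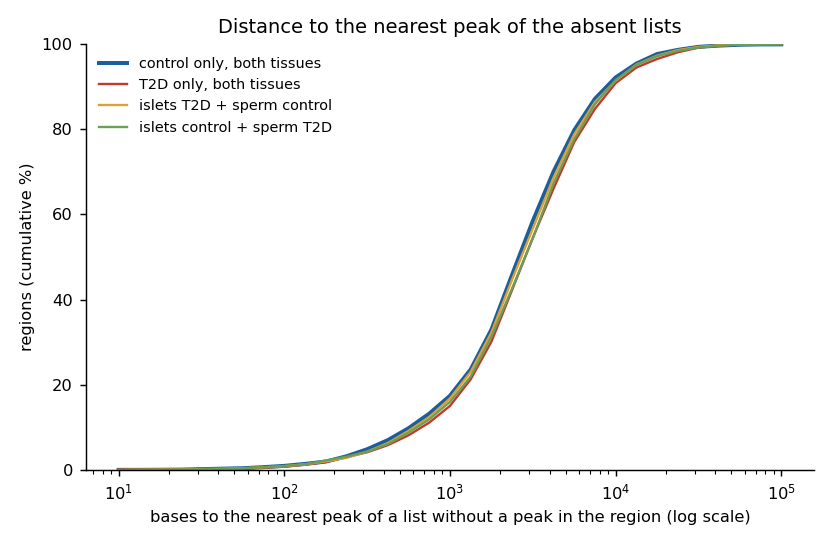
Cumulative share of regions against the distance to the nearest peak of the lists without a peak there, on a log scale, for control-only regions (thick blue), T2D-only regions and both classes of opposite condition. The 4 curves run close together, with 17.4% of control-only and 15.1% of T2D-only regions at 1000 bp.

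T2D peaks within 1000 bp of a control-only region were checked for a control peak of the same tissue. In islets 665 control-only regions had such a neighbour, which overlapped another control islet peak in 277 cases, or 41.7% (38.0% to 45.4%). In sperm there were 810, with a control sperm partner in 360 cases, or 44.4% (41.1% to 47.9%). Over all autosomal T2D peaks the share with a control partner of the same tissue was 67.5% in islets and 69.5% in sperm, but by the rule no control peak of a control-only region overlaps a T2D peak, so the nearest control peaks could not be partners and the shares are not alike in construction. The neighbours had a median of 41 tags in T2D islets and 54 in T2D sperm. In T2D-only regions the neighbouring control peaks had a partner in 39.9% (islets) and 44.4% (sperm) of cases.

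The rule itself turned on single bases at its edge. Nearest to a T2D peak among control-only regions was chromosome 8 from 33178289 to 33178923, with 19 islet and 32 sperm tags and a T2D islet peak 2 bp away. Next came chromosome 19 from 32639664 to 32640686 (47 and 57 tags, T2D sperm peak at 3 bp) and chromosome 4 from 116119782 to 116120615 (23 tags in either tissue, T2D sperm peak at 9 bp). Just outside was a union region on chromosome 15 from 55385324 to 55387073, whose control peaks had 33 islet and 36 sperm tags and were only touched by a T2D sperm peak of 36 tags. On chromosome 1 from 163022363 to 163024769 a T2D sperm peak of 55 tags shared 15 bp with control peaks of 71 islet and 124 sperm tags. On chromosome 11 from 95753012 to 95755153 a T2D islet peak of 56 tags shared 20 bp with control peaks of 49 islet and 65 sperm tags. Such cases were few, since 68 control-only regions had a T2D peak within 100 bp, and 12 of the 90000 regions in which joined control peaks of both tissues met a T2D peak shared at most 100 bp with it.

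At the other end, 18 control-only regions lay over 50 kb from any T2D peak. The farthest was on chromosome 14 from 42270790 to 42271452, with 26 islet and 23 sperm tags. Its nearest T2D peak was 133647 bp away in islets and 209256 bp away in sperm. The nearest control peak outside control-only regions was also 198071 bp away, and no list had another peak within 50 kb. A pair on chromosome 4, from 39138233 to 39139431 (27 and 36 tags) and from 39176003 to 39176789 (22 and 25 tags), stood 126892 and 106214 bp from the nearest T2D peak. Within 50 kb of either member of that pair, the 1 other peak of each control list was the other member's. On chromosome 14 from 44927456 to 44928541 the islet peak had 100 tags and a score of 352, the highest islet score of any control-only region, and the sperm peak had 48 tags and a score of 158. The nearest T2D peaks there were 240897 bp away in islets and 103921 bp away in sperm. The nearest control peak outside control-only regions was 128818 bp away. The fifth, on chromosome 14 from 42899467 to 42900565 (51 and 33 tags), had another control peak at 6096 bp and T2D peaks at 103396 bp in islets and 296269 bp in sperm. All 5 regions therefore had at most 1 other control islet and 1 other control sperm peak within 50 kb.

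The spacing of control-only regions was compared with that of the other classes. The nearest other control-only region was a median of 96718 bp away (interval 92956 to 100501), against 102025 bp for T2D-only regions, 105828 bp for T2D islets with control sperm and 98461 bp for control islets with T2D sperm. Another one lay within 100 kb of 51.0% (49.8% to 52.2%) of them, against 49.4% (48.2% to 50.6%), 47.7% (46.5% to 48.9%) and 50.5% (49.3% to 51.7%) in the other classes in the same order. In 158 cases a control-only region was directly followed by another in the order of union regions, and no run was longer than 3. T2D-only regions gave 156 such pairs and the same longest run. In the distance to the nearest and in the share within 100 kb, the intervals were apart from those of T2D islets with control sperm, and overlapped those of the other classes. Neighbouring regions can each be the other's nearest, so they are not independent and these intervals are too narrow. The classes also differ in number (6827 and 6636 regions), for which spacing was not adjusted, and no difference was tested. Starting a 100 kb window at each region in turn, 56 windows held at least 4 control-only regions, against 49 for T2D-only regions, 32 for T2D islets with control sperm and 34 for control islets with T2D sperm. Such windows overlap each other and were not tested.

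The most crowded 100 kb window held 6 control-only regions, a number reached from 2 starting regions, both on chromosome 2. T2D-only regions also reached 6, as did control islets with T2D sperm, and T2D islets with control sperm reached 5. In the window that came first along the chromosome the regions spanned positions 143689825 to 143760651. They began with 28 islet and 38 sperm tags from 143689825 to 143691121, then 55 and 162 tags from 143714055 to 143716704, 34 and 28 tags from 143719255 to 143720406, and 47 and 61 tags from 143727198 to 143728360. The last 2 had 40 and 36 tags from 143754669 to 143755494, and 49 and 42 tags from 143759764 to 143760651. T2D peaks were not missing from this stretch. Each of the 6 had 6 to 11 T2D islet peaks and 8 to 11 T2D sperm peaks within 50 kb, against 7 to 10 control islet and 11 to 15 control sperm peaks. These control counts include peaks of other control-only regions of the window, which was picked for holding the most of them. The nearest T2D peaks were 311 to 6928 bp away.

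Control-only regions were found on every autosome. They made up 22.6 of every 1000 union regions over the 19 autosomes, from 18.7 (interval 16.4 to 21.3) on chromosome 16 to 25.3 (22.7 to 28.3) on chromosome 17. Chromosome 1 was also low, at 19.8 (18.1 to 21.7), against 22.5 for T2D-only regions and 22.8 and 23.1 for the opposite classes. Chromosomes 2, 5, 11 and 12 were at 25.01, 24.9, 24.7 and 25.1. On chromosome 9 the T2D-only class was higher, at 25.3, against 21.1 (19.05 to 23.4) for control-only regions. The intervals are not adjusted for looking at 19 chromosomes. Towards chromosome ends the class did not depart from the union regions, with 3.44% (3.04% to 3.902%) of control-only regions and 3.54% of autosomal union regions in the first 5 Mb of the covered part, and 4.54% (4.07% to 5.06%) and 4.44% in the last 5 Mb.

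**Figure D5:**
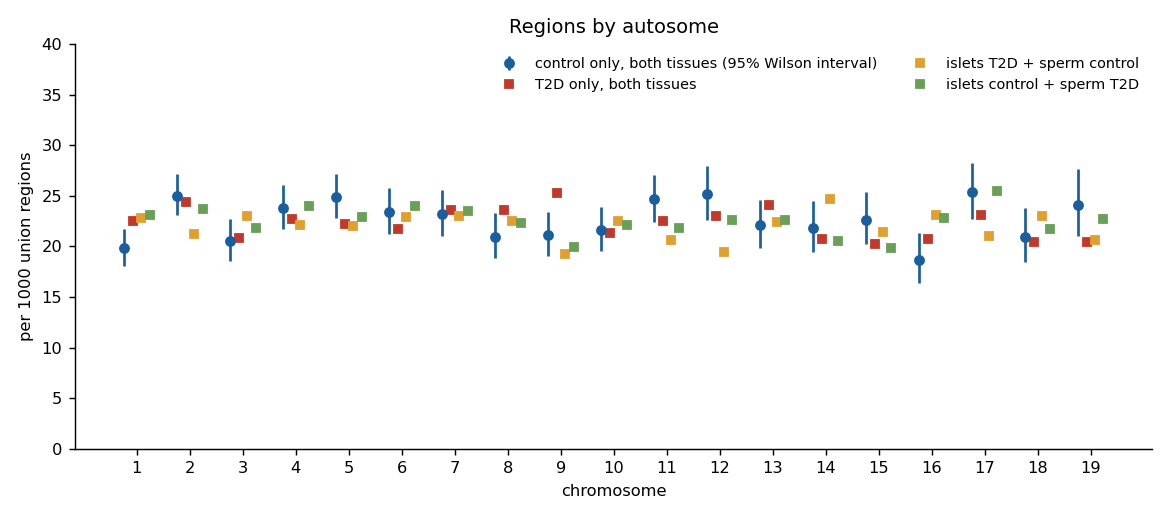
Regions per 1000 union regions on each autosome for control-only regions (blue circles with 95% Wilson intervals), T2D-only regions and the classes of opposite condition (squares). Control-only regions range from 18.7 on chromosome 16 to 25.3 on chromosome 17.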

How the data were processed

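Per the submitters' processing notes the build was mm9 and CASAVA 1.4 was used. Per the file headers, sperm peaks were called with MACS without a control library on 49 bp tags, with a p-value cutoff of 1.00e-05 and at most 2 duplicate tags per position, from 31833988 unique tags in T2D and 31053754 in control sperm. Caller, settings and depth of the islet lists are not stated there. Library fragments, of about 250 bp with adapters, had 15 PCR cycles per the labels' protocols. Each group had 1 library, so intervals cover counting error only. The deposited tag counts are whole numbers, not scaled to depth. The deposited score is 10 times −log10 of the p-value of a peak, and the deposited fold enrichment is a ratio to the caller's background; both are the authors' values for each peak within its list. Regions were joined in Python 3.11.15 with numpy 2.4.6 and pandas 2.3.3, and their number was checked with bedtools 2.31.1. The classification and distances were tested on simulated lists. A region's values are those of its peak with the most tags, and distances count the bases between intervals. Intervals are 95% Wilson (shares, scipy 1.17.1), exact binomial (ratios) or from order statistics (medians). Named regions were the 8 with the highest lower tag count, the 5 farthest from T2D peaks, the 5 widest, those of the most crowded 100 kb window, and 3 on each side of the rule's edge. The regions and measures were chosen with earlier results of these data known. Strata of local density were set after values had been seen. Alternatives varied the overlap, the distance, the score threshold, list length and chromosomes.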

Additional observations from a re-analysis of the deposited data

Results flagged for a closer look

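Within 50 kb of control-only regions, T2D peaks were fewer than control peaks in islets, at a ratio of 0.987 (57167 T2D and 57907 control peaks), and slightly more in sperm, at 1.003 (62377 T2D and 62186 control peaks). The ratios thus lay on opposite sides of 1, but each rests on 1 library a group and the difference was not tested. Within 5 kb both tissues had more T2D than control peaks, at 1.045 in islets and 1.082 in sperm. Around T2D-only regions the ratios were 0.988 in islets and 1.002 in sperm within 50 kb, and 0.925 and 0.929 within 5 kb. Within 5 kb they were 0.925 and 1.07 for T2D islets with control sperm, and 1.024 and 0.928 for control islets with T2D sperm. In every class the list without a peak in the region thus had more peaks within 5 kb, with the region's own peaks not counted. Those own peaks are taken out of the other list only, and the classes were chosen by these same lists. The counts are therefore not like for like, and the difference was not tested. The whole autosomal lists held 163824 T2D and 164458 control islet peaks, and 176823 T2D and 175523 control sperm peaks.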

How the results depend on the processing

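Of 47 values over 8 results and 6 settings, 35 stayed within the interval of the main value, or for the count within 1.5 times. Restricting all lists to scores of at least 100 moved every result: the count became 3414, the ratios 1.243 (1.18 to 1.31) to T2D-only regions, 1.105 (1.05 to 1.16) to T2D islets with control sperm and 1.16 (1.10 to 1.22) to control islets with T2D sperm, with intervals that exclude 1, the share with a T2D peak within 1000 bp 1.58%, the median tags 48 in islets and 63 in sperm, and the share with another region within 100 kb 30.8%. Only 226 of those 3414 regions (6.62%) overlapped a control-only region of the full lists. The others lay in regions of the full lists that also held a T2D peak. With that threshold the T2D lists kept fewer peaks (58961 in islets and 67826 in sperm) than the control lists (60629 and 70203). With no T2D peak allowed within 1000 bp, 5636 regions remained, the sperm median became 40 tags and the share with another within 100 kb 45.0%; the share within 1000 bp has no value there. At equal list lengths the share within 1000 bp became 16.0% and the sperm median 43 tags, and 90.7% of its regions overlapped a main one. No paired analysis was possible because each group had 1 library and no result comes from a test. The unknown islet depth limits any reading of a missing islet call.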

Other observations

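The sex chromosomes were left out of the regions above. On X the control-only pattern was met in 85 regions, against 84 called in both T2D lists only, 108 called in T2D islets with control sperm and 85 called in control islets with T2D sperm. On Y the counts in the same order were 2, 1, 0 and 2.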
